A study of Mus musculus with 4 samples.

Results

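The genes described here are the ephrins, semaphorins, Slits and netrins, which act as guidance cues, together with their Eph, plexin, Robo and Unc5 receptors. They were taken by gene symbol, as all annotated symbols of the Eph, Efn, Sema3 to Sema7, Plxn, Robo, Slit, Ntn and Unc5 families, which took 66 of the 32285 genes counted. They fall into 10 families: 9 EphA receptors, 5 EphB receptors, 8 ephrins, 7 class 3 semaphorins, 13 other semaphorins, 9 plexins, 4 Robo genes, 3 Slit genes, 4 netrins and 4 Unc5 receptors.

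Guidance cues were first described in growing axons, where a cue on or released from one cell attracts or repels another cell that carries its receptor. Ephrins stay on the cell surface and bind Eph receptor tyrosine kinases on the neighbouring cell, class 3 semaphorins are secreted and signal through plexins with neuropilins as co-receptors, Slits bind Robo receptors, and netrins bind Dcc, neogenin and Unc5 receptors. In limb tissue the same families are known for sorting mesenchymal cells along boundaries, for guiding vessels and nerves, and for roles in bone and cartilage formation.

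The study profiled single cells from the presumptive knee of mouse hindlimbs, dissected free of soft tissue and digested with collagenase, to ask how glucose uptake bears on joint formation. There were 4 libraries, with 1 library per group and no exact number of embryos given for each, beyond a minimum of 3 per genotype that the study's methods state for its experiments in general: a control at E13.5, a control at E14.5, and at E14.5 the genotypes Prx1cre;Glut1f/f;Glut3f/+ and Prx1cre;Glut1f/f;Glut3f/f. They are called the Glut1 mutant and the DCKO library. Both controls carried the label No cre, and Prx1cre acts in limb mesenchyme, so cells of other origin such as endothelium, macrophages and muscle should keep both transporter genes.

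A UMI is a tag that counts each captured mRNA molecule once. The E13.5 library held 100344565 UMIs, and those of E14.5 held 84188147 in the control, 97110697 in the Glut1 mutant and 91574038 in the DCKO. Cells were kept if they had between 200 and 6000 genes with a UMI and no more than 10% mitochondrial UMIs, which left 12446, 9305, 11264 and 11305 cells in the same order. For each class and library the UMIs of its cells were added up and given as CPM, the usual scale in which each sum has the same total. With this kit a UMI marks the 3′ end of a molecule, so CPM is not divided by gene length, and levels of different genes are set side by side on that scale. The 4 values given for a gene follow the order E13.5 control, E14.5 control, Glut1 mutant and DCKO.

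Cells were clustered without the guidance genes, after each gene had been centred within each library, and clusters were named from fixed marker lists. The classes carry "-like" in their names because they rest on markers alone. Interzone-like cells, which resemble the mesenchyme of the future joint and have Gdf5 and Osr2 among their leading genes, numbered 1334, 1591, 1409 and 852. Chondrocyte-like cells numbered 2596, 4111, 3543 and 4294. The label Interzone given to each library as its tissue and cell type covers a small part of it, since interzone-like cells made up 10.7%, 17.1%, 12.5% and 7.54% of the kept cells. Smaller classes were prehypertrophic chondrocyte-like, fibroblast-like, osteogenic-like, muscle progenitor-like, myocyte-like, endothelial-like, macrophage-like, erythroid-like, glial-like and mural-like cells. Cells left without a name came to 46.3%, 12.5%, 23.6% and 25.2% of the libraries.

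The genotype labels were checked against the deleted genes. Slc2a1, which encodes the glucose transporter Glut1, stood at 72.0, 80.4, 377 and 435 CPM in chondrocyte-like cells and at 55.3, 39.1, 156 and 201 CPM in interzone-like cells. It was thus higher, not lower, in both libraries labelled with its deletion, by a log2 ratio to the E14.5 control of 2.23 (95% interval 2.17 to 2.29) and 2.43 (2.38 to 2.49) in chondrocyte-like cells. Which exons were deleted is not stated, and whether the counted 3′ ends come from a deleted transcript was not tested. Slc2a1 also stood at 41.1, 20.1, 126 and 198 CPM in erythroid-like cells, which should not carry the deletion. Slc2a3, which encodes Glut3, stood at 3.63, 3.01, 3.88 and 1.06 CPM in chondrocyte-like cells, lowest in the DCKO library, where it fell by 1.51 on the log2 scale (interval -2.07 to -0.97). Below, Glut1 mutant and DCKO name libraries by their labels.

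The libraries differ in more than age and genotype. Xist, expressed from the inactive X of female cells, had a UMI in 64.7%, 0.172%, 92.2% and 91.2% of the kept cells, and Y-linked genes in 18.4%, 65.9%, 0.0355% and 0.0265%. In the comparisons of either mutant library with the E14.5 control, sex and genotype therefore cannot be told apart, while the Glut1 mutant and the DCKO were alike in these genes. The E13.5 library held cells of both sexes. Of the guidance genes, 3 are on the X chromosome, namely Efnb1, Plxna3 and Plxnb3. Efnb1 stood at 35.0, 30.2 and 29.0 CPM and Plxna3 at 8.38, 11.1 and 10.7 CPM in chondrocyte-like cells of the E14.5 libraries, differences under 2-fold. The libraries share few cell barcodes, 174 of which occur in more than 1 library.

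All 66 guidance genes had UMIs in the kept cells, and 65 of them in each of the 4 libraries. The exception was Robo3, with 8 UMIs in all and 0 in the E14.5 control. A level of 20 CPM in a named class of at least 100 cells was reached by 35 genes, and 8 of these reached 100 CPM. The other 31 stayed under 20 CPM. By family, 7 of 8 ephrins, 6 of 9 plexins, 3 of 5 EphB receptors and 4 of 7 class 3 semaphorins reached 20 CPM. So did 2 of 4 Robo genes, 2 of 4 Unc5 receptors, 4 of 9 EphA receptors and 5 of 13 semaphorins outside class 3. In the remaining families 1 of 3 Slit genes and 1 of 4 netrins did. The share of all genes at that level was not computed, so these counts are a description. The genes lie on many chromosomes, at most 7 of them on the same one (chromosomes 5 and 9).

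**Figure D1:**
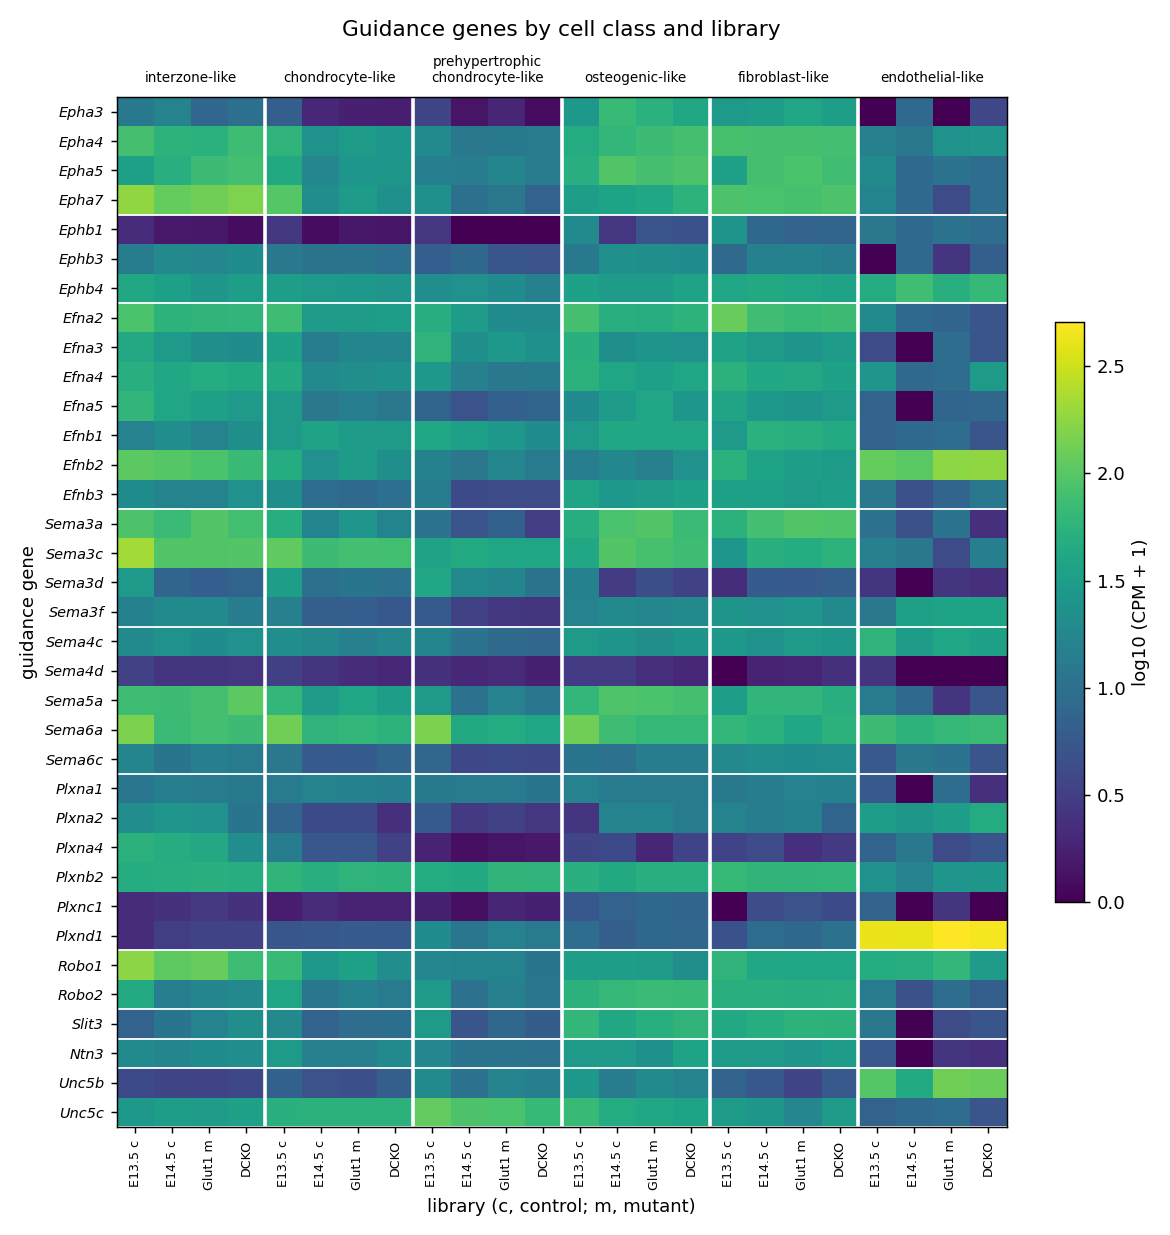
Level of the 35 guidance genes that reached 20 CPM, by cell class and library; each column is a class in a library and the colour gives the log10 of CPM plus 1. Plxnd1 is brightest in endothelial-like cells, while Sema3c, Epha7, Robo1 and Sema6a are bright in interzone-like cells of each library.

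Among the ephrins, the ephrin-A gene Efna2 and the ephrin-B gene Efnb2 were the most abundant in interzone-like cells. Efna2 stood at 85.4, 54.7, 58.3 and 59.1 CPM in interzone-like cells, at 73.3, 30.1, 28.6 and 31.7 CPM in chondrocyte-like cells and at 119, 74.4, 67.3 and 71.0 CPM in fibroblast-like cells. Efnb2, a ligand shared by EphB receptors and Epha4 and a marker of arterial endothelium, stood at 104, 97.3, 86.2 and 66.2 CPM in interzone-like cells and at 46.2, 22.6, 29.9 and 21.1 CPM in chondrocyte-like cells. It was higher in interzone-like cells in each library, and endothelial-like cells held 115, 103, 175 and 179.6 CPM. Efna5 stood at 59.6, 38.4, 33.5 and 28.2 CPM in interzone-like cells and at 28.0, 10.9, 13.4 and 10.9 CPM in chondrocyte-like cells. Efna4, named after its values had been seen, held 49.4, 41.5, 45.9 and 43.2 CPM in interzone-like cells. Efna3 stood at 56.9, 21.4, 26.5 and 22.1 CPM in prehypertrophic chondrocyte-like cells and at 42.0, 28.1, 21.1 and 19.5 CPM in interzone-like cells. Efna1, a ligand of Epha2 made by endothelium, was the 1 ephrin under 20 CPM in all classes of at least 100 cells, although endothelial-like cells, with fewer cells than that, held 129, 129, 152 and 192 CPM.

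Of the secreted semaphorins, Sema3c and Sema3a led. Sema3c, which attracts neural crest and vessel-forming cells through neuropilins and plexins, stood at 214, 93.9, 93.0 and 96.1 CPM in interzone-like cells, the highest level of any guidance gene in a class of at least 100 cells. In chondrocyte-like cells it stood at 109, 71.4, 78.0 and 75.7 CPM. Sema3a, a repellent of sensory axons that is also made by bone-forming cells, stood at 88.3, 69.7, 95.4 and 75.5 CPM in interzone-like cells and at 47.9, 15.8, 25.1 and 15.6 CPM in chondrocyte-like cells. Both ligands were thus higher in interzone-like than in chondrocyte-like cells of each library, while Sema3a was also found in fibroblast-like cells, with 54.6, 77.3, 93.3 and 91.3 CPM. Sema3d was most abundant in prehypertrophic chondrocyte-like cells of the E13.5 control, where it stood at 40.4 CPM beside 18.4, 16.4 and 10.1 CPM in the E14.5 libraries.

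Of the membrane-bound semaphorins, Sema6a and Sema5a were broadly expressed in the skeletal classes. Sema6a, a ligand of A plexins, stood at 149.8, 69.8, 77.9 and 71.4 CPM in interzone-like cells and at 130.2, 56.4, 61.2 and 55.5 CPM in chondrocyte-like cells, so that the E13.5 value was the highest of the 4 in both. Sema5a, a transmembrane semaphorin with thrombospondin repeats, stood at 71.8, 70.5, 80.1 and 105 CPM in interzone-like cells and at 61.4, 30.6, 39.3 and 31.8 CPM in chondrocyte-like cells. Sema4d, known from immune cells and osteoclasts, was 4-fold or more higher in macrophage-like cells than in the other named classes of at least 100 cells, at 36.7, 15.4, 43.8 and 18.8 CPM, and rests on 67 UMIs.

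Most soluble cues of the Slit and netrin families stayed under 20 CPM. Slit3, a secreted ligand of Robo receptors made by bone-forming cells, was the 1 Slit gene to reach 20 CPM, with 61.4, 40.6, 50.5 and 56.5 CPM in osteogenic-like cells and 41.9, 48.2, 55.7 and 53.6 CPM in fibroblast-like cells. In interzone-like cells Slit3 stood at 6.04, 10.4, 15.1 and 20.6 CPM. Ntn3 was the 1 netrin to do so, with 27.7, 28.3, 21.7 and 36.2 CPM in osteogenic-like cells, 18.9, 16.2, 19.6 and 20.2 CPM in interzone-like cells and 28.7, 14.1, 14.2 and 18.6 CPM in chondrocyte-like cells.

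Among the receptors of ephrins, Epha7 was the most abundant in interzone-like cells. It stood there at 181, 115, 132 and 153 CPM, at 97.0, 20.2, 30.2 and 22.0 CPM in chondrocyte-like cells and at 88.9, 83.2, 82.3 and 89.2 CPM in fibroblast-like cells. Free RNA in droplets gives UMIs in cells that do not express a gene, and erythroid-like cells, which should lack these receptors, held 28.8, 7.11, 25.8 and 17.4 CPM of Epha7. The low Epha7 values of chondrocyte-like cells in the Glut1 mutant and DCKO libraries were therefore close to that level. Epha4, which binds both ephrin classes, stood at 79.9, 55.2, 53.2 and 72.8 CPM in interzone-like cells, at 56.1, 23.5, 28.8 and 25.5 CPM in chondrocyte-like cells and at 81.3, 79.7, 79.2 and 78.4 CPM in fibroblast-like cells. Epha5 stood at 50.1, 92.5, 80.1 and 88.3 CPM in osteogenic-like cells and at 34.3, 80.9, 85.3 and 73.6 CPM in fibroblast-like cells. Epha3 stood at 26.5, 67.5, 52.2 and 41.4 CPM in the former and at 27.9, 32.3, 39.4 and 31.6 CPM in the latter. Of the EphB receptors, Ephb4, the receptor of Efnb2 on venous endothelium, stood at 40.1, 33.0, 25.8 and 31.3 CPM in interzone-like cells and at 45.2, 73.7, 49.1 and 64.9 CPM in endothelial-like cells.

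The plexins, which receive semaphorins, differed in where they were found. Plxnb2, a receptor of class 4 semaphorins, was spread evenly, with 46.0, 47.8, 51.9 and 47.7 CPM in interzone-like cells and 57.4, 50.1, 57.1 and 55.9 CPM in chondrocyte-like cells. Plxna4, which pairs with neuropilins to receive Sema3a, stood at 54.1, 46.0, 42.3 and 20.2 CPM in interzone-like cells and at 12.6, 4.41, 4.45 and 2.39 CPM in chondrocyte-like cells. It was the 1 guidance gene at least 4-fold higher in interzone-like cells than in each other named class of at least 100 cells in 3 or more libraries. Glial-like cells, too few for that rule, had Plxna4 among their most abundant guidance genes in the E13.5 control, on 26 cells. Plxnd1, the vascular receptor of Sema3e, was in contrast a gene of endothelial-like cells, with 419, 413, 509 and 471 CPM there and 1.21, 2.18, 2.56 and 2.61 CPM in interzone-like cells. Plxna2 was highest in myocyte-like cells, with 60.2, 77.5, 61.3 and 67.0 CPM, and stood at 20.5, 25.0, 22.6 and 10.4 CPM in interzone-like cells.

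Robo1, a receptor of Slits, was among the most abundant receptors of interzone-like cells, with 170.3, 108, 118 and 73.1 CPM there and 68.0, 26.8, 34.7 and 20.3 CPM in chondrocyte-like cells. Robo2 had another pattern and, among named classes of at least 100 cells, was highest in osteogenic-like cells, with 53.8, 62.2, 69.6 and 66.8 CPM. Unc5c, a repulsive netrin receptor, stood at 114, 87.9, 83.2 and 64.7 CPM in prehypertrophic chondrocyte-like cells, at 51.2, 54.5, 54.3 and 53.4 CPM in chondrocyte-like cells and at 68.0, 45.3, 40.3 and 35.8 CPM in osteogenic-like cells. Interzone-like cells held less of it, 27.0, 31.1, 29.7 and 34.2 CPM.

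Endothelial-like cells, of which there were 85, 51, 83 and 95, had the largest set of guidance genes that were at least 4-fold higher there than in the other named classes of at least 100 cells. These were Plxnd1, Efna1, Robo4, Sema6d, Sema3g and Sema7a. Sema3g also met this rule in glial-like cells, in 3 libraries and on 19 UMIs, and Sema7a in mural-like cells, on 12 UMIs. Robo4, an endothelial member of its family, stood at 99.7, 66.3, 105 and 126 CPM, and Sema3g, a semaphorin of arterial endothelium, at 23.4, 18.4, 57.3 and 52.5 CPM. Robo4 had 64, 18, 64 and 91 UMIs in endothelial-like cells, but at most 2 in chondrocyte-like and at most 1 in interzone-like cells of a library. Unc5b, a netrin receptor of endothelial tip cells, stood at 98.1, 44.2, 131 and 123 CPM in endothelial-like cells and was also found in osteogenic-like cells, with 26.7, 12.8, 18.4 and 15.3 CPM. The erythroid markers summed to 7945, 29152, 16553 and 268 CPM in endothelial-like cells. Their median was 1930 UMIs per cell in the E14.5 control, beside 5122 at E13.5, 5475 in the Glut1 mutant and 5062 in the DCKO. The part of these differences in the endothelial-like values was not tested.

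The classes also differed in the summed level of the 66 genes. Interzone-like cells held 1864, 1367, 1426 and 1396 CPM of guidance mRNA, with 20, 20, 18 and 21 genes at 20 CPM or more. Chondrocyte-like cells held 1346, 723, 805 and 741 CPM, with 22, 12, 15 and 14 such genes. How many of all genes reached that level in each class was not computed. The sum was lower in chondrocyte-like cells in each library, and the gap was widest at E14.5. Erythroid-like cells, used above to gauge free RNA, held 349, 151, 415 and 278 CPM. The part of free RNA in these sums was not tested. Prehypertrophic chondrocyte-like cells held 970.2, 592, 628 and 519 CPM, and fibroblast-like cells, with 1311, 1345, 1324 and 1317 CPM, and osteogenic-like cells, with 1283, 1322, 1318 and 1321 CPM, showed little difference between libraries. The fibroblast-like class held only 100 cells at E13.5. It leaves out an unnamed cluster of 3111, 107, 344 and 235 cells, whose highest marker score was that of fibroblasts but too low for a name.

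The next comparison sets interzone-like against chondrocyte-like cells of the same library, to describe which cues and receptors differ between them. These classes are clusters of the same cells, so the ratios are a description. A gene was compared when 1 of its sums held at least 20 UMIs, and it was counted when the CPM values were 2-fold or more apart. Intervals on ratios are exact 95% intervals that cover counting error only, and with 1 library per group no test between groups was possible.

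At E14.5 a large share of the guidance genes was higher in interzone-like than in chondrocyte-like cells. In the E14.5 control 25 of 53 were 2-fold or more higher and 2 were lower, against 12.1% and 7.36% of all genes compared. In the Glut1 mutant 20 of 52 were higher and 2 lower (10.5% and 7.13% of all genes), and in the DCKO 23 of 54 were higher and 1 lower (11.5% and 6.83%). The median log2 ratio of the guidance genes was 0.86, 0.82 and 0.79 in these libraries, beside 0.15, 0.13 and 0.16 over all genes. In the E13.5 control the count was smaller, 6 higher and 2 lower of 53 (4.68% and 5.96% of all genes), with a median of 0.28 beside 0.06. Several genes counted as lower met the minimum of UMIs only in chondrocyte-like cells. In interzone-like and chondrocyte-like cells Epha8 had 1 and 31 UMIs in the DCKO and 0 and 28 in the Glut1 mutant. Sema3g had 1 and 26 in the E14.5 control, and Plxnd1 had 9 and 101 in the E13.5 control. The Epha8 interval in the DCKO, -7.17 to 0.76, held 0.

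The genes on the higher side include both partners of several ligand and receptor families. The 6 that were 2-fold higher in each of the 4 libraries were the receptors Plxna4, Plxna2, Robo1 and Epha3 and the ligands Efnb2 and Efna5, and no gene was 2-fold lower in each. The Plxna4 log2 ratio was 2.11, 3.38, 3.25 and 3.08, and its interval ran from 1.88 to 2.33 at E13.5 and from 3.12 to 3.65 in the E14.5 control. Epha3, an EphA receptor that binds Efna5, had log2 ratios of 1.01, 3.89, 3.25 and 3.64, small at E13.5 (0.60 to 1.42) and large at E14.5. Its E13.5 level in chondrocyte-like cells, 5.66 CPM, was under that of erythroid-like cells, given below. Free RNA thus limits the E13.5 ratio of Epha3. The log2 ratio was 1.65, 3.02, 2.89 and 2.92 for Plxna2, and 1.32, 2.01, 1.77 and 1.85 for Robo1. For Efnb2 it was 1.17, 2.10, 1.53 and 1.65, and for Efna5 1.09, 1.82, 1.32 and 1.37. All 6 thus had a smaller ratio at E13.5 than in any E14.5 library. A gene higher than in chondrocyte-like cells can be higher still elsewhere. In the E14.5 control Epha3 stood at 67.5 CPM in osteogenic-like cells beside 15.2 CPM in interzone-like cells. Plxna2 stood at 77.5 CPM in myocyte-like cells beside 25.0 CPM in interzone-like cells.

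In the 3 E14.5 libraries, 15 genes were 2-fold or more higher in interzone-like cells. These add the receptors Epha7 and Epha5 and the ligands Sema3a, Sema3b, Sema3f, Sema4g, Sema5a, Sema6d and Slit2, of which Sema3b and Sema4g were named after their values had been seen. Slit2, a repellent ligand of Robo1, had log2 ratios of 0.76, 3.42, 3.03 and 2.90, but at low levels of 6.58, 8.63, 11.9 and 9.49 CPM in interzone-like cells. Epha7 had log2 ratios of 0.90, 2.51, 2.13 and 2.80. Epha5 went from -0.37 at E13.5 to 1.51, 1.48 and 1.60, although osteogenic-like cells of the E14.5 control held 92.5 CPM beside 48.4 CPM in interzone-like cells. Slit3 changed sides with age in the same way, at -1.55 in the E13.5 control and 0.71, 0.88 and 1.27 in the E14.5 libraries. Unc5c, in contrast, was lower in interzone-like cells throughout without reaching 2-fold, at -0.93, -0.81, -0.87 and -0.64.

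Of 61 further genes of the same pathways, such as co-receptors and intracellular effectors, fewer differed. In the E13.5 control 2 were higher and 2 lower of 54 (4.68% and 5.96% of all genes), with a median log2 ratio of 0.11. At E14.5 the counts were 11 higher and 1 lower of 55 in the control (median 0.41), 11 and 2 of 55 in the Glut1 mutant (0.31), and 8 and 2 of 53 in the DCKO (0.36). Of all genes 12.1% were higher and 7.36% lower in the control, 10.5% and 7.13% in the Glut1 mutant, and 11.5% and 6.83% in the DCKO. Nrp1, the neuropilin that binds Sema3a, was on the higher side with Plxna2 and Plxna4, at 0.72, 1.88, 1.72 and 2.07. Nrp2, which prefers Sema3c and Sema3f, was lower at E13.5 and near equal later, at -1.46, -0.17, -0.01 and 0.29. The netrin receptor neogenin, Neo1, was near equal throughout, at -0.09, -0.46, -0.24 and 0.01.

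The E13.5 count depends on which cells make up the classes. In place of 8 genes past 2-fold, 31 were past it when the genes were not centred within libraries before clustering, 27 higher and 4 lower (16.2% and 6.94% of all genes). There were 22 at a cluster resolution of 1 (17 and 5; 10.4% and 3.26%), 16 at 0.25 (14 and 2; 7.70% and 2.08%), 20 when single cells were sorted by marker UMIs (16 and 4; 8.83% and 5.27%), 19 with a stricter cell filter of 1000 to 6000 genes and no more than 5% mitochondrial UMIs (13 and 6; 7.99% and 5.93%), and 15 without a cluster led by cell cycle genes (12 and 3; 7.58% and 2.59%). The share of all genes on the higher side was thus larger as well. These alternatives were chosen for this comparison after seeing the data. At E13.5 the chondrocyte-like cells held 1312 CPM of the 5 interzone markers, Sfrp2 the most abundant, beside 426, 522 and 293 CPM at E14.5, and 3999 CPM of the 8 chondrocyte markers, Col2a1 the most abundant, beside 11755, 10740.2 and 9868 CPM. The part of these differences in the count was not tested.

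The age comparison sets the E14.5 control against the E13.5 control and shows how guidance genes differ across the day between them. In interzone-like cells, of 48 guidance genes compared, 1 rose and 5 fell by 2-fold or more, against 5.04% and 2.89% of all genes compared. The median log2 ratio was -0.20, beside -0.02 over all genes.

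The genes that fell in interzone-like cells were 3 semaphorins and the receptors Robo2 and Ephb6. Sema3c, the most abundant of the set, went from 214 to 93.9 CPM, a log2 ratio of -1.19 (-1.31 to -1.07). Sema6a went from 149.8 to 69.8 CPM, -1.10 (-1.24 to -0.96), and Sema3d, a secreted semaphorin that acts on vessels, from 27.2 to 6.65 CPM, -2.03 (-2.46 to -1.62). Robo2 went from 44.2 to 13.3 CPM, -1.73 (-2.04 to -1.43). Ephb6, an Eph receptor without kinase activity, went from 6.31 to 2.60 CPM, -1.28 (-2.04 to -0.55). Epha2, a receptor of ephrin-A ligands, was the 1 gene that rose, from 2.42 to 5.30 CPM, 1.13, with an interval that starts at 0.33. It had 18 and 51 UMIs, so it met the minimum of UMIs only at E14.5, where it was higher. The Sema3c call ended, at -0.69 and -0.94, with cluster resolutions of 0.25 and 1, and at -0.76 with cells sorted by marker UMIs, that of Sema6a ended at -0.91 with a resolution of 0.25 and -0.78 with sorted cells, that of Ephb6 at -0.85 with the stricter cell filter, -0.97 with a resolution of 0.25 and -0.89 with sorted cells, and that of Epha2 at 0.75 without centring, at 0.64 with sorted cells and at 0.98 with a mean over cells.

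The interzone-like class changed its make-up over the same day. A sub-cluster led by Gdf5 and Osr2 held 94.8%, 30.5%, 45.1% and 43.9% of its cells, and a sub-cluster led by Rgs5 and Myoz1 held 3.52%, 37.6%, 42.9% and 51.6%. Another, led by Htra1 and Tm4sf1, held 0.300%, 29.9%, 10.3% and 2.11%. Sema3c stood at 223, 114, 115 and 129 CPM in the Gdf5 and Osr2 sub-cluster and at 115, 57.1, 57.9 and 58.0 CPM in the Rgs5 and Myoz1 sub-cluster. Within the Gdf5 and Osr2 sub-cluster, an alternative taken up once the data had been seen, 1 of 46 guidance genes rose and 11 fell (2.17% and 5.40% of all genes), more than in the class as a whole. The log2 ratio there was -0.96 for Sema3c, -1.06 for Sema6a, -1.35 for Sema3d, -1.79 for Robo2, -2.40 for Ephb6 and 1.94 for Epha2. Epha7 and Epha5 had the opposite distribution, Epha7 with 64.2 to 176 CPM there beside 194 to 307 CPM in the Rgs5 and Myoz1 sub-cluster, and Epha5 with 31.7, 17.2, 38.5 and 29.4 CPM beside 70.3, 98.7, 117 and 144 CPM. The interzone-like class of the E14.5 control thus mixes cells with unlike sets of guidance genes. In the class as a whole the 7 fibroblast markers, all with UMIs in each library and Col3a1 the most abundant, summed to 902, 2939, 2633 and 2296 CPM, the 6 tendon markers, all with UMIs, to 139.8, 269, 129.6 and 90.4 CPM, with Scx the most abundant in both controls, and the 5 interzone markers to 4134 CPM at E13.5 beside 3279 CPM in the E14.5 control. The part of these differences in the values between the ages was not tested.

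Chondrocyte-like cells differed more between the ages. Of 55 guidance genes compared, 27 fell and 1 rose by 2-fold or more, against 7.80% and 4.65% of all genes. The median log2 ratio was -0.97, beside -0.15 over all genes. When sums were scaled by TMM factors each log2 ratio in this class moves up by 0.18, and 22 genes fell (5.76% of all genes). The genes that fell belong to both sides of the signalling pairs: receptors such as Epha3, Epha4, Epha5, Epha7, Robo1, Robo2, Plxna2 and Plxna4, and ligands such as Efna2, Efna3, Efna5, Efnb2, Sema3a, Sema3d, Sema5a, Sema6a, Slit3 and Ntn3.

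Epha7 had the largest fall of the abundant genes, from 97.0 to 20.2 CPM, a log2 ratio of -2.26 (-2.38 to -2.14). Ephb1 went from 1.73 to 0.242 CPM, -2.84 (-4.07 to -1.77), and Epha6 from 1.34 to 0.188 CPM, -2.83 (-4.26 to -1.62), both on few UMIs. Ephb1 had 40 and 9 UMIs and Epha6 31 and 7, so both met the minimum of UMIs only at E13.5, where they were higher. Epha3 went from 5.66 to 1.02 CPM, -2.47 (-3.03 to -1.94), and Slit2 from 3.89 to 0.806 CPM, -2.27 (-2.92 to -1.66). The log2 ratio was -1.89 for Robo2, -1.77 for Sema3d, -1.60 for Sema3a, -1.51 for Plxna4, -1.36 for Epha5, -1.35 for Robo1 and -1.21 for Sema6a. Free RNA limits 3 of these values: in erythroid-like cells of the E13.5 control Epha3 stood at 7.40 CPM, Ephb1 at 3.29 and Slit2 at 3.29, on 9, 4 and 4 UMIs. The E13.5 levels of Epha3 and Ephb1 in chondrocyte-like cells were lower than that, and the Slit2 level lies within the interval of its erythroid-like value, 0.896 to 8.42 CPM. The guidance genes together stood at 349 CPM in erythroid-like cells of the E13.5 control and at 151 CPM in those of the E14.5 control. The part of free RNA in the other falls was not tested. Against this trend Epha2 rose from 3.54 to 8.49 CPM, 1.26 (0.91 to 1.63), as it did in interzone-like cells. Unc5c, Plxnb2 and Efnb1 were near equal at both ages, with log2 ratios of 0.09, -0.19 and 0.31.

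**Figure D2:**
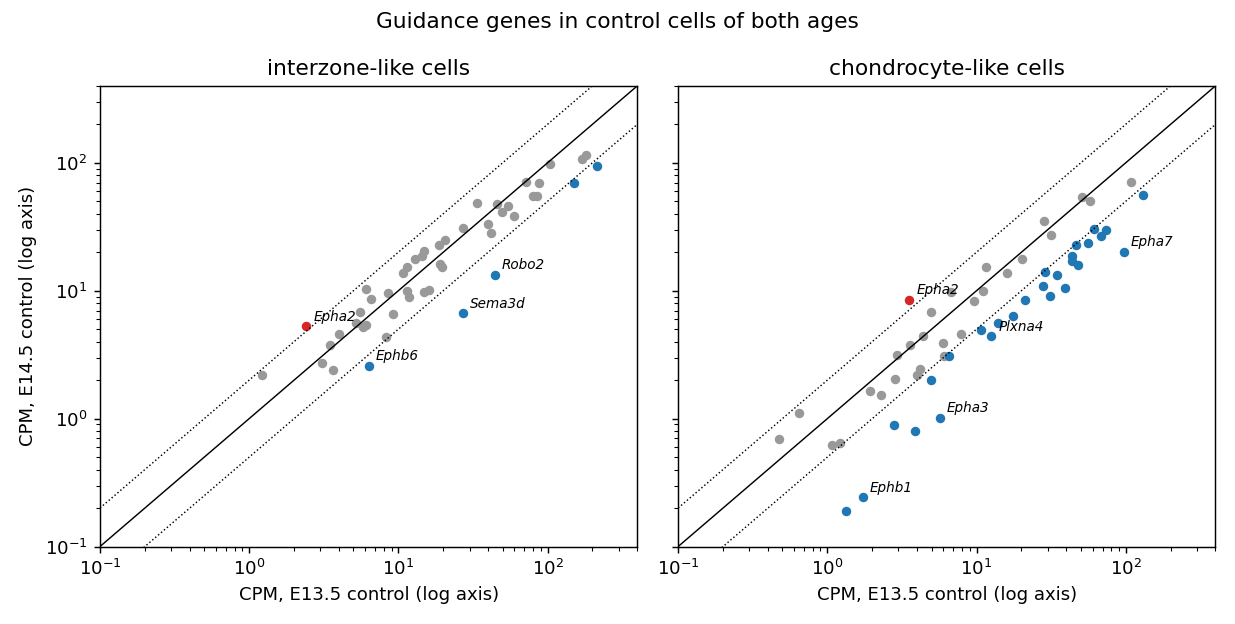
CPM of each compared guidance gene in the E13.5 control (x axis) and the E14.5 control (y axis) on log axes, in interzone-like cells (left) and chondrocyte-like cells (right); the solid line marks equal levels, dotted lines 2-fold, blue genes 2-fold or more lower at E14.5, red genes higher and grey genes neither. In chondrocyte-like cells 27 genes lie below the lower dotted line, in interzone-like cells 5.

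The chondrocyte-like count also rests on how the class is drawn at E13.5. Without centring within libraries the class held 371 cells at E13.5, and 13 genes were past 2-fold, 4 higher and 9 lower (7.94% and 5.03% of all genes). With single cells sorted by marker UMIs 15 were past it, 1 higher and 14 lower (4.71% and 5.50%). Without centring, the log2 ratio was -0.43 for Epha7, -0.22 for Epha3, -0.47 for Ephb1 and -1.04 for Slit2, and with sorted cells it was -1.33 for Epha7 and -1.08 for Epha3. Epha6 was at -0.05 at a cluster resolution of 0.25, Slit2 was at -0.96 at a resolution of 1, and Epha2 at 0.89 there and at 0.85 with sorted cells. The class joins a cluster led by Prc1, Mki67 and Top2a, with 1566, 1363, 1367 and 1612 cells, and another with 1030, 2748, 2176 and 2682 cells. Epha7 was lower at E14.5 within each of these clusters, at 105 and 25.9 CPM in the former and 76.6 and 15.4 CPM in the latter. The difference in marker levels given above, with more interzone and fewer chondrocyte marker UMIs at E13.5, stands beside these falls, and its part in them was not tested.

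The pathway genes outside the set were counted in the same way. In interzone-like cells 2 of 52 rose and 2 fell, with a median log2 ratio of 0.08. These shares, 3.85% each, were near those of all genes, 5.04% and 2.89%. Nrp2 was among those that rose, from 28.9 to 59.2 CPM (log2 ratio 1.04), with the Slit-Robo effector Srgap3 (1.36), and the netrin receptor Dcc was among those that fell, from 10.9 to 2.91 CPM (-1.90), with the tyrosine kinase Fes (-1.12). In chondrocyte-like cells 1 of 56 rose and 7 fell (4.65% and 7.80% of all genes), with a median of -0.16. The semaphorin effector Crmp1 (-2.58), Dcc (-2.29), the exchange factor Vav3 (-1.73), the semaphorin effector Dpysl3 (-1.73) and Met (-1.29), a receptor that associates with plexins, were among them, and Ngef, an exchange factor that acts after EphA receptors, rose (2.75). Flrt2, a ligand of Unc5 receptors, stood at 46.7, 68.1, 44.6 and 45.3 CPM in interzone-like cells, and Flrt3 at 13.6 CPM in the E13.5 and 10.7 CPM in the E14.5 control.

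The genotype comparisons set the Glut1 mutant and the DCKO library against the E14.5 control, which both share, and then against each other, to describe guidance genes where glucose transporter genes were to be deleted. Few guidance genes differed by 2-fold in any of them. In the Glut1 mutant, 0 of 48 rose and 1 fell in interzone-like cells (0.653% and 1.97% of all genes), and 1 of 54 rose and 0 fell in chondrocyte-like cells (0.902% and 1.03%). The gene that rose, Epha8, met the minimum of UMIs only in the mutant, with 10 UMIs in the control and 28 in the mutant. With at least 50 UMIs in a sum it was not compared, and the chondrocyte-like count was 0. The median log2 ratios of the guidance genes were -0.02 and 0.05, beside -0.10 and -0.08 over all genes.

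The chondrocyte-like class leaves out a cluster led by Car9, Ndufa4l2 and Slc2a1, whose highest marker score was that of chondrocytes but too low for a name. It held 22, 67, 1018 and 1294 cells, or 0.177%, 0.720%, 9.04% and 11.4% of the kept cells, so most of it came from the Glut1 mutant and the DCKO. With its cells added, an alternative chosen after seeing the data, 2 of 56 guidance genes were higher in the Glut1 mutant than in the control, as were 1.74% of all genes, and 4 of 56 were higher and 1 lower in the DCKO (2.47% and 3.97% of all genes). The log2 ratio of Epha8 was then 1.40 and 1.62, and that of Plxna2 in the DCKO was -0.92 against the control and -0.97 against the Glut1 mutant, short of 2-fold.

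The 1 gene that fell in interzone-like cells of the Glut1 mutant was Epha3, at 15.2 CPM in the control and 6.91 in the mutant, a log2 ratio of -1.14 (-1.61 to -0.68). The call ended at -0.97 with the stricter cell filter, and the ratio was -0.66 in the Gdf5 and Osr2 sub-cluster and -0.21 in the Rgs5 and Myoz1 sub-cluster, both chosen after seeing the data. In chondrocyte-like cells Epha8, another EphA receptor, went from 10 to 28 UMIs, 0.269 to 0.884 CPM, a log2 ratio of 1.72 (0.63 to 2.92). In the DCKO library Epha8, with 31 UMIs, was higher than in the same control, at 1.65 (0.58 to 2.84). Both ratios rest on the 10 UMIs of that control, so they are not independent of each other. In both comparisons Epha8 rests on few UMIs.

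In interzone-like cells of the DCKO library 0 of 48 guidance genes rose and 3 fell against the control. The share that fell, 6.25%, was close to that of all genes (0.929% rose and 5.20% fell), with a median log2 ratio of 0.05 beside -0.12 over all genes. Plxna4 went from 46.0 CPM in the control to 20.2 in the DCKO, -1.19 (-1.54 to -0.85), while the Glut1 mutant held 42.3. Plxna2 went from 25.0 to 10.4 CPM, -1.26 (-1.76 to -0.79), while the Glut1 mutant held 22.6. Sema5b, a repellent of retinal axons, went from 5.20 to 2.37 CPM, 50 to 10 UMIs, -1.13 (-2.28 to -0.13). The DCKO library was thus the low one for Plxna2 and Plxna4, with the 3 other libraries within 2-fold of each other.

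The direct comparison of the DCKO with the Glut1 mutant, which differ in the second floxed Glut3 allele, gave Plxna2 and Plxna4 again. In interzone-like cells 0 of 48 rose and 2 fell (0.864% and 2.20% of all genes; median log2 ratio 0.05, beside -0.02), namely Plxna2 at -1.12 (-1.63 to -0.63) and Plxna4 at -1.07 (-1.43 to -0.72). In chondrocyte-like cells 0 of 54 rose and 1 fell (1.02% and 1.72%; median -0.05, beside -0.06), Plxna2 at -1.15 (-1.66 to -0.64). The interzone-like calls ended with sorted cells, at -0.44 for Plxna2 and -0.53 for Plxna4, and with a mean over cells, at -0.82 and -0.94, and that of Plxna4 at -0.93 with a cluster resolution of 1. The chondrocyte-like call ended at -0.93 with the stricter cell filter, at -0.80 with a resolution of 0.25 and at -0.73 without centring. Both comparisons use the DCKO library, so they are not independent of each other.

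**Figure D3:**
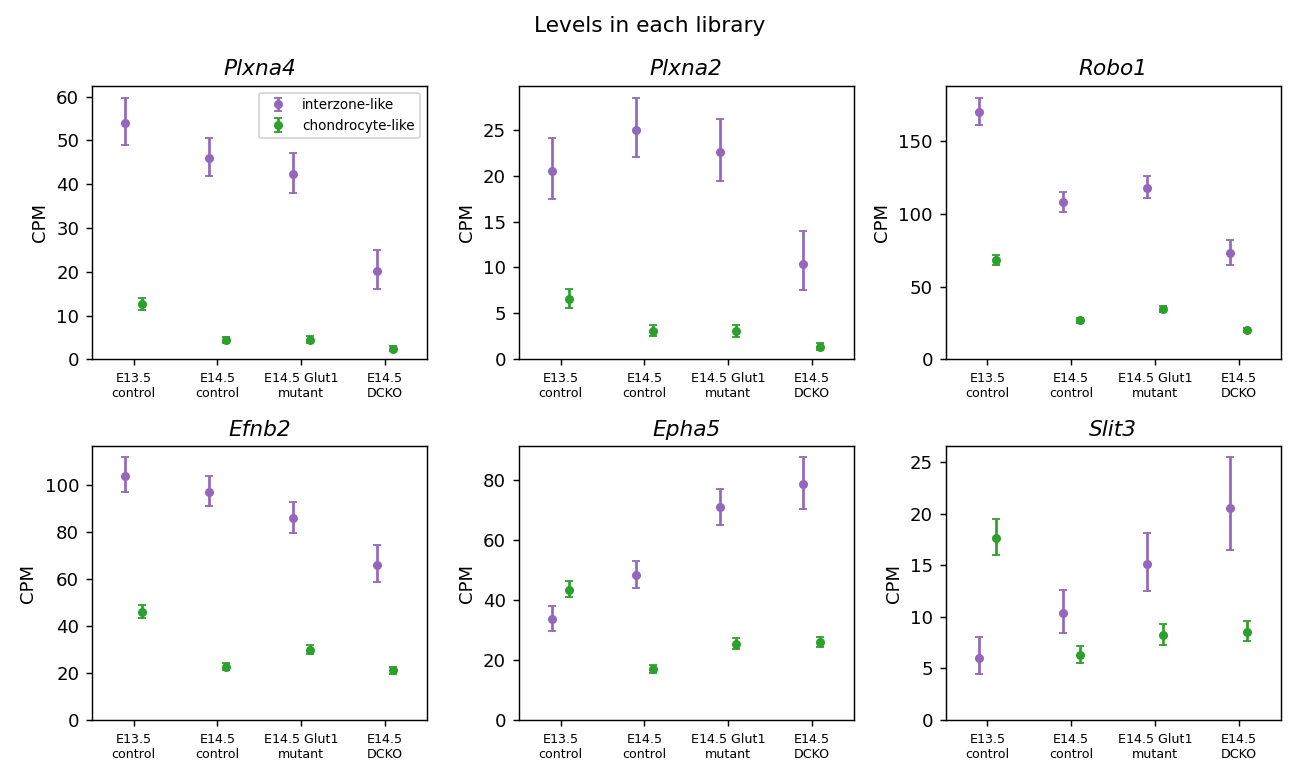
CPM of 6 guidance genes in each library, in interzone-like cells (purple) and chondrocyte-like cells (green), with exact 95% Poisson intervals that cover counting error only. Plxna4 and Plxna2 are lowest in the DCKO library in both classes, and Epha5 and Slit3 are highest there in interzone-like cells.

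The fall of Plxna2 and Plxna4 in interzone-like cells differed between sub-clusters and ways of drawing the class. In the Gdf5 and Osr2 sub-cluster Plxna2 stood at 21.2, 15.3, 11.9 and 5.98 CPM, and the log2 ratio of DCKO to control was -1.36. In the Rgs5 and Myoz1 sub-cluster it stood at 16.0, 13.1, 23.2 and 15.7 CPM, and the ratio turned to 0.26. Plxna4 was lower in the DCKO in both, with a ratio of -1.17 in the former and -0.92 in the latter. The sub-cluster led by Htra1 and Tm4sf1, with 475, 145 and 18 cells at E14.5, or 29.9%, 10.3% and 2.11% of the class, held 52.3, 72.1 and 25.2 CPM of Plxna2 and 55.6, 46.5 and 25.2 CPM of Plxna4, the DCKO values on 2 UMIs each. In the E14.5 control both genes were thus higher there than in the class as a whole, and the part of its smaller share in the fall was not tested. With single cells sorted by marker UMIs the ratios were -0.64 for Plxna2 and -0.74 for Plxna4, short of 2-fold. Sema5b was at -0.84 with the stricter cell filter, at -0.38 with a mean over cells and at 0.34 in the Rgs5 and Myoz1 sub-cluster. The sub-cluster values were computed after seeing the data. TMM factors move each log2 ratio of DCKO to control up by 0.09 in interzone-like and 0.14 in chondrocyte-like cells, and with them 2 guidance genes were past 2-fold upward in interzone-like cells beside 3 downward (1.23% and 4.38% of all genes). The count was 7 without centring (0.930% and 5.33%) and 7 with sorted cells (0.922% and 6.74%). The 5 interzone markers summed to 3279 CPM in control, 2864 in Glut1 mutant and 1915 in DCKO interzone-like cells, most of it Sfrp2, the 8 chondrocyte markers to 1520.2, 1854 and 2202 CPM, most of it Col2a1, and the 6 tendon markers to 269, 129.6 and 90.4 CPM. The part of these differences in the fall of Plxna2 and Plxna4 was not tested.

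In chondrocyte-like cells of the DCKO 2 of 55 guidance genes rose and 2 fell against the control (1.61% and 3.29% of all genes), with a median log2 ratio of 0.00 beside -0.14. Epha8, Slit1 and Ntn4 met the minimum of UMIs only in the library where they were higher. Control and DCKO held 10 and 31 UMIs of Epha8, 10 and 21 of Slit1, and 24 and 9 of Ntn4. With at least 50 UMIs in a sum, only Plxna2 was counted. Beside Epha8, the Slit family gene Slit1 was 2-fold higher at 1.08, with an interval from -0.06 to 2.33 that holds 0. Plxna2 went from 3.09 to 1.38 CPM, -1.16 (-1.66 to -0.67), and Ntn4, a netrin of basement membranes, from 24 to 9 UMIs, -1.40 (-2.69 to -0.24). Slit1 was named after its value had been seen. Without the cycling cluster, an alternative chosen after seeing the data, Epha8, Slit1 and Ntn4 were not counted. The Plxna2 call here ended in several ways: the log2 ratio was 0.33 at a cluster resolution of 0.25, -0.86 at 1, -0.31 without centring, -0.52 with sorted cells, -0.45 with the stricter cell filter and, in an alternative chosen after seeing the data, -0.15 without the cycling cluster. In that cluster alone, also chosen after seeing the data, it was -1.62, past 2-fold.

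Other genes differed by less than 2-fold but with intervals that leave out 0. In interzone-like cells Robo1 stood at 108, 118 and 73.1 CPM in the E14.5 control, Glut1 mutant and DCKO, a log2 ratio of DCKO to control of -0.56 (-0.75 to -0.38). Efnb2 stood at 97.3, 86.2 and 66.2 CPM, also -0.56 (-0.75 to -0.36). Both were lowest in the DCKO, like Plxna2 and Plxna4. Epha5 ran the other way, with 48.4, 70.9 and 78.8 CPM and log2 ratios to the control of 0.55 in the Glut1 mutant and 0.70 in the DCKO. Slit3 did too, with 10.4, 15.1 and 20.6 CPM and ratios of 0.54 and 0.99, the latter with an interval from 0.56 to 1.42. Epha5 and Slit3 were both higher in the Rgs5 and Myoz1 sub-cluster than in the Gdf5 and Osr2 sub-cluster in each E14.5 library, Slit3 with 23.4, 30.3 and 39.0 CPM beside 4.70, 4.91 and 6.90 CPM. These genes were singled out for this comparison after their values had been seen.

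Sema3c, Sema6a, Plxnb2 and Unc5c, abundant genes of both classes, were near equal across the genotypes. In interzone-like cells of the DCKO their log2 ratios to the control were 0.03, 0.03, 0.00 and 0.14, and in chondrocyte-like cells 0.08, -0.02, 0.16 and -0.03.

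Of the pathway genes outside the set, 0 of 52 rose and 0 fell in interzone-like cells of the Glut1 mutant (median log2 ratio -0.16), and 2 of 56 rose and 0 fell in chondrocyte-like cells (-0.10), the semaphorin receptor Cd72 (1.11) and Dcc (1.19). Of all genes 0.653% rose and 1.97% fell in the former class, and 0.902% and 1.03% in the latter. In the DCKO 0 of 51 rose and 3 fell in interzone-like cells (-0.17), namely Rras, a small GTPase that plexins act on (-1.37), Vav3 (-1.07) and Dcc (-1.03, interval -2.59 to 0.27). The share that fell, 5.88%, was close to the 5.20% of all genes, of which 0.929% rose. In chondrocyte-like cells of the DCKO 1 of 55 rose, Dcc (1.44), and 2 fell (median -0.20), the integrin Itga1 (-1.40) and Vav3 (-1.53). Of all genes 1.61% rose and 3.29% fell there. Against the Glut1 mutant, 0 of 51 rose or fell in interzone-like cells of the DCKO (-0.06), and 1 of 56 rose, Rnd1 (1.26), and 2 fell, Vav3 (-1.99) and Met (-1.42), in chondrocyte-like cells (-0.10). The shares of all genes were 0.864% and 2.20% in the former class and 1.02% and 1.72% in the latter. Nrp1, the co-receptor of Plxna4, had a log2 ratio of 0.17 (-0.15 to 0.49) in interzone-like cells of the DCKO against the control, and so was not among the genes that fell with Plxna2 and Plxna4.

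The 6 genes that were higher in interzone-like cells of each library lie on 5 chromosomes of GRCm38 in GENCODE M21: Plxna2 at chr1:194618218-194816869, Plxna4 at chr6:32144268-32588192, Efnb2 at chr8:8617434-8661242, Robo1 at chr16:72308306-73046095, Epha3 at chr16:63543534-63864175 and Efna5 at chr17:62604184-62881317. Since each was higher in interzone-like cells of all 4 libraries, their promoters were searched on both strands for 3 short motifs. A promoter here is the 250 bases before a RefSeq transcription start in GRCm38.p6, and a gene can have several. The motifs were chosen after the values had been seen. Promoters of 57 guidance genes and of 5 of the 6 were in the table, and that of Plxna4 was missing. A guidance gene was counted if any of its promoters held the motif, while the share of all counts each promoter by itself. These shares are thus not directly comparable. The core of hypoxia response elements, ACGTG, was in 16.6% of all 32851 promoters, in 11 of the 57 and in 0 of the 5. AACAAT, bound by Sox factors, was in 9.42% of all, in 3 of the 57 and in 0 of the 5. CAGAC, part of the Smad binding element and a short sequence frequent by its length, was in 42.2% of all, in 32 of the 57 and in 4 of the 5, namely Efnb2, Epha3, Plxna2 and Robo1. A match is a description of letters and not evidence of binding.

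To show such matches, 3 of these promoters are printed 5′ to 3′ with capitals on CAGAC or its reverse complement GTCTG, those of Plxna2 (chr1:194619579-194619828, plus strand), Robo1 (chr16:72662899-72663148, plus strand) and Efnb2 (chr8:8661243-8661492, minus strand), which stand for a semaphorin receptor, a Slit receptor and an ephrin. For each gene the first promoter listed was printed, and those of Plxna2 and Robo1 lie inside the gene spans given above.
Plxna2: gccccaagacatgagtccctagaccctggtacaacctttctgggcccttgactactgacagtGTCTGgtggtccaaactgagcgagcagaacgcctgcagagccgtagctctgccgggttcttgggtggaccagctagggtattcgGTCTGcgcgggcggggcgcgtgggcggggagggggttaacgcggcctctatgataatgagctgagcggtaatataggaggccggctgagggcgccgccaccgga
Robo1: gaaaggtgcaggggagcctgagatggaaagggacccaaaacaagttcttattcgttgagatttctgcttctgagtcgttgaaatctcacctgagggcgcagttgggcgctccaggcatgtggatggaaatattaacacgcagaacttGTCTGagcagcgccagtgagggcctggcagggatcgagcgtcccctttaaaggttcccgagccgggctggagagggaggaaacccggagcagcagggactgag
Efnb2: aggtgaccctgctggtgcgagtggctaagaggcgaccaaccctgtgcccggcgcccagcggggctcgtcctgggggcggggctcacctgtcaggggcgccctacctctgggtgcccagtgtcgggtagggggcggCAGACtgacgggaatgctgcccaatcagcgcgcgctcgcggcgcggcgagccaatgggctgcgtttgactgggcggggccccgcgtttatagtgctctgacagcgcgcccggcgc
Plxna2 has 2 matches, and Robo1 and Efnb2 have 1 each.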

How the data were processed

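Single-cell 3′ libraries (10x kit v3.1, 1 per group) were sequenced and counted by the authors with Cell Ranger 6.1.2, and the deposited values are raw UMI counts per gene and cell, with mm10 named as the genome. Whole numbers were checked in all files. Members and lists were chosen with earlier results of these data known.

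Kept cells were log-normalized. From 2000 variable genes, without guidance, pathway, sex-linked, mitochondrial, ribosomal and transporter genes, centred and scaled within each library, 30 components and 20 neighbours gave Leiden clusters at a resolution of 0.5 (scanpy 1.11.5, igraph 0.11.9). A class could name a cluster if at least 3 of its markers were each in 10% of the cells and its marker score reached a minimum. Of such classes, the cluster took that with the most markers among its 10 leading genes, with ties going to the higher score. It stayed unnamed if another class had more markers among these genes, or if its cells had few UMIs and no leading gene was a marker of the class. The minimum score, 0.5, was chosen with the scores in view. Doublets were kept.

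UMIs were summed by class and library. Levels carry exact Poisson intervals and ratios exact conditional 95% intervals (Python 3.11.15, numpy 2.4.6, scipy 1.17.1, pandas 2.3.3). No test was run. Medians use a prior count of 0.5. Figures were drawn with matplotlib 3.10.9. Other scalings came from edgeR 4.0.16 and DESeq2 1.42.0 in R 4.3.3. Alternatives were the scaling, the filters on counts and cells, the resolution, the centring, cells sorted 1 by 1 by their markers, the removal of doublets and a mean over cells.

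Genes were named by rule: Slc2a1 and Slc2a3, up to 4 genes per family with the highest level at 20 CPM or more, up to 5 per direction past 2-fold in each comparison with an interval that leaves out 0, genes 4-fold higher in a class than in other classes of at least 100 cells in 3 libraries, and Nrp1, Nrp2, Neo1, Dcc, Flrt2 and Flrt3 with up to 5 other pathway genes.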

Additional observations from a re-analysis of the deposited data

Results flagged for a closer look

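Some guidance genes moved in opposite directions between the ages in different cell classes of the control libraries, by 2-fold or more each way. Values are log2 ratios of the E14.5 to the E13.5 control, and in each case the difference was not tested, since each age has 1 library. Epha3 was at 1.35 in osteogenic-like cells but at -2.47 in chondrocyte-like and -2.75 in prehypertrophic chondrocyte-like cells. Epha5 was at 1.24 in fibroblast-like and 1.33 in glial-like cells, of which there were 26 and 12, but at -1.36 in chondrocyte-like cells. Plxna2 was at 3.22 in osteogenic-like cells but at -1.09 in chondrocyte-like and -1.37 in prehypertrophic chondrocyte-like cells. Sema3c was at 1.03 in fibroblast-like and 1.24 in osteogenic-like cells but at -1.19 in interzone-like cells. Sema5a was at 1.45 in myocyte-like cells but at -1.01 in chondrocyte-like and -1.58 in prehypertrophic chondrocyte-like cells. Sema6d was at 1.39 in fibroblast-like cells but at -1.66 in chondrocyte-like and -3.17 in prehypertrophic chondrocyte-like cells. Markers differed between the ages in these classes too. In osteogenic-like cells the 7 fibroblast markers summed to 2129 CPM at E13.5, with Col1a2 the most abundant and Dpt at 0, and to 8319.9 CPM at E14.5, with Col1a1 the most abundant, while the 7 osteogenic markers, led by Runx2, summed to 622 and 338 CPM. In prehypertrophic chondrocyte-like cells the 6 markers of that class, led by Mef2c, summed to 1499 and 387 CPM. That class held 818 cells in the E14.5 control, but 89 at a resolution of 1 and 67 without centring. No cluster was named osteogenic with either of those settings. In fibroblast-like cells, 100 of them at E13.5, the 7 fibroblast markers, led by Col3a1 and with Dpt at 0 at E13.5, summed to 3205 and 5391 CPM, while the 6 tendon markers, led by Scx, summed to 687 and 377 CPM. The unnamed cluster whose highest marker score was that of fibroblasts held 3111 cells at E13.5 and 107 in the E14.5 control. Cells that score as fibroblasts thus sat largely in different clusters at E13.5 and E14.5. In myocyte-like cells the 7 myocyte markers, led by Actc1, summed to 10488 and 5786 CPM. The part of these differences in the values above was not tested.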

How the results depend on the processing

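No paired analysis was possible because each group has 1 library. Of 622 alternative values, 480 stayed close, 139 moved and 3 reversed, where close means within 1.5-fold for a count and inside the reported counting interval for the log2 ratio of a single gene. Of the counts of guidance genes between libraries 65 of 106 stayed close. Of the single-gene ratios 249 of 298 did, and 246 of 298 kept their direction and were still 2-fold or more. Where a value moved the cause was not tested. A star marks an alternative chosen after seeing the data.

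Reversed log2 ratios of DCKO to control were 0.26 for Plxna2* and 0.34 for Sema5b* in the interzone-like sub-cluster led by Rgs5 and Myoz1, and 0.33 for Plxna2 in chondrocyte-like cells at a resolution of 0.25.

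Guidance genes at 20 CPM in chondrocyte-like cells numbered 14 at E13.5 without centring, and 7, 8 and 6 in the E14.5 control, Glut1 mutant and DCKO at a resolution of 1. The counts below are of guidance genes past 2-fold, with the percentages of all genes 2-fold higher and lower in brackets. Without a filter on counts, all genes were compared and a prior count of 0.5 was added to each.

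Between the ages, interzone-like cells gave 6 (5.04, 2.89), but 16 (8.60, 6.69) without a filter on counts and 12* (2.17, 5.40) in the sub-cluster led by Gdf5 and Osr2. Chondrocyte-like cells gave 28 (4.65, 7.80), but 13 (7.94, 5.03) without centring and 15 (4.71, 5.50) with cells sorted 1 by 1.

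For the Glut1 mutant against the control, interzone-like cells gave 1 (0.653, 1.97), but 7 (5.40, 6.51) without a filter, 0 (0.599, 2.07) with a stricter cell filter of 1000 to 6000 genes and at most 5% mitochondrial UMIs, 3 (0.656, 2.84) with sorted cells, 2* (1.03, 1.33) and 0* (0.559, 1.74) in the Gdf5 and Rgs5 sub-clusters. Chondrocyte-like cells gave 1 (0.902, 1.03), but 0 (0.431, 0.513) with at least 50 UMIs, 4 (5.77, 5.83) without a filter, 4 (2.05, 1.98) and 2 (1.34, 1.44) at resolutions of 0.25 and 1, 2 (2.13, 1.41) with sorted cells, 0* (0.522, 1.53) without the cycling cluster, 0* (1.07, 1.03) in it alone and 2*, both higher as were 1.74% of all genes, with a Car9-led cluster added.

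For the DCKO against the control, interzone-like cells gave 3 (0.929, 5.20), but 5 (1.23, 4.38) with TMM factors, 5 (1.32, 4.21) with median-of-ratios factors, 11 (48.5, 5.47) without a filter, 7 (0.930, 5.33) without centring, 7 (0.922, 6.74) with sorted cells and 0* (0.597, 3.19) in the Rgs5 sub-cluster. Without a filter, genes with no UMI in either sum counted as higher here, because the DCKO sum was smaller by more than 2-fold. The 48.5% and the count of 11 thus hold genes that were not detected. Chondrocyte-like cells gave 4 (1.61, 3.29), but 1 (0.978, 2.17) with at least 50 UMIs, 10 (6.14, 7.52) without a filter, 2 (2.58, 3.90) and 1 (2.43, 4.15) at resolutions of 0.25 and 1, and 0* (1.39, 3.05) without the cycling cluster.

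For the DCKO against the Glut1 mutant, interzone-like cells gave 2 (0.864, 2.20), but 8 (4.98, 3.85) without a filter, 1 (0.699, 3.08) with sorted cells, 0 (1.01, 2.37) with a mean over cells and 0* (0.569, 1.47) in the Rgs5 sub-cluster. Chondrocyte-like cells gave 1 (1.02, 1.72), but 5 (5.74, 6.43) without a filter, 0 (1.28, 1.78) with the stricter cell filter, 2 (1.08, 1.75) and 3 (1.18, 1.60) at resolutions of 0.25 and 1, 0 (1.45, 1.48) without centring, 4 (1.07, 2.43) with sorted cells, 2 (0.948, 1.68) without doublets, 3 (1.19, 1.85) with a mean over cells and 2* (1.28, 1.34) without the cycling cluster.

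For interzone-like against chondrocyte-like cells at E13.5 the count was 8 (4.68, 5.96), but 14* (47.3, 4.63) without a filter, 19* (7.99, 5.93) with the stricter cell filter, 16* (7.70, 2.08) and 22* (10.4, 3.26) at resolutions of 0.25 and 1, 31* (16.2, 6.94) without centring, 20* (8.83, 5.27) with sorted cells and 15* (7.58, 2.59) without the cycling cluster. The 47.3% and the count of 14 again hold genes with no UMI in either sum, because the interzone-like sum was the smaller by more than 2-fold.

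With 1 library per group, differences between embryos, litters and preparations cannot be told apart from age or genotype, and in comparisons with the E14.5 control neither can sex. The exact number of embryos in each library is not given. Class names rest on marker genes, and 46.3% of the E13.5 cells have no class, against 12.5% in the E14.5 control. Intervals on genes with few UMIs are wide, so differences under 2-fold in scarce genes such as most netrins were not detectable at this depth. mRNA of a cue or receptor does not give its protein or its signalling.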

Other observations

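Muscle progenitor-like cells held 573, 398, 371 and 349 CPM of the 66 genes together, in the order E13.5 control, E14.5 control, Glut1 mutant and DCKO, with 6, 4, 4 and 4 genes at 20 CPM or more. Plxna2 was among these, with 53.8, 56.1, 46.5 and 40.4 CPM. The DCKO value rests on 37 cells and 19 UMIs, with a wide counting interval of 24.3 to 63.1 CPM.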
